A study of Mus musculus with 4 samples.

Results

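The Ebf genes encode the early B-cell factors, transcription factors with a zinc-binding DNA-binding domain and a helix-loop-helix that lets them pair. Ebf1 is needed for the B-cell lineage and promotes adipogenesis in cultured mouse cells, upstream of Pparg and Cebpa. Ebf2 is known from brown and beige fat, where it marks committed preadipocytes and helps open the chromatin of thermogenic genes. Ebf3 is best known from the developing nervous system, and the 3 proteins bind the same kind of DNA site. All of this is background from other work and not a result of the peak lists described here.

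The open chromatin around these 3 genes was described in adipose progenitors, the precursor cells of fat, which were freshly isolated from C57BL/6 mice at 16 weeks of age and given no further treatment. There were 4 ATAC-seq libraries, 2 from visceral fat (VAT 1 and VAT 2) and 2 from subcutaneous fat (SAT 1 and SAT 2). The assay uses a transposase that inserts adapters into accessible DNA, and each library came with 1 list of peaks on mouse build mm9. The labels do not say how the progenitors were purified, whether animals were pooled, or whether replicates are separate mice, and p-values then measure the spread between these libraries, which could be technical.

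Members were taken by position on mm9. They are all peaks overlapping chromosome 11 from 44380000 to 44880000 (the Ebf1 window, 500 kb), chromosome 14 from 67780000 to 68120000 (the Ebf2 window, 340 kb) or chromosome 7 from 144300000 to 144580000 (the Ebf3 window, 280 kb). These windows held 173 of the 198854 peaks in the 4 lists. Merging peaks that overlapped by at least 1 bp gave 82 regions there, out of 83319 in the genome, with 38 in the Ebf1, 36 in the Ebf2 and 8 in the Ebf3 window. The nearest protein-coding neighbours of Ebf1 in the RefSeq table are Rnf145 and Clint1, those of Ebf2 are Ppp2r2a and Cdca2, and those of Ebf3 are Mgmt and 9430038I01Rik. That table follows GRCm38, so whether a region lies in an exon, an intron, a UTR or between genes is not given, and the labelled cell type was not checked against marker genes.

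The window edges fell in stretches without peaks. Inside, the outermost regions of the Ebf1 window stood 15.0 kb and 27.2 kb from its edges, and the next regions outside stood 5.78 kb and 37.1 kb away, with peaks in 2 and 3 libraries. For the Ebf2 window the distances were 27.3 kb and 15.2 kb inside, against 4.49 kb and 37.5 kb outside, again with peaks in 2 and 3 libraries. The Ebf3 window was empty for 121 kb at its lower and 66.5 kb at its upper end, and the regions 21.8 kb and 21.9 kb beyond its edges had peaks in all 4 libraries.

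RefSeq promoter sequences were at hand for Ebf1 (2 annotated starts) and Ebf3. They are shown because they differ in base composition, as the 250 bases before each start, 5′ to 3′ on the gene's strand, with every CpG in capitals. Their coordinates are on GRCm38.p6, at chr11:44617850-44618099 (plus strand), chr11:44619978-44620227 (plus strand) and chr7:137314446-137314695 (minus strand), and cannot be compared with the mm9 positions of the peaks.
Ebf1 start 1: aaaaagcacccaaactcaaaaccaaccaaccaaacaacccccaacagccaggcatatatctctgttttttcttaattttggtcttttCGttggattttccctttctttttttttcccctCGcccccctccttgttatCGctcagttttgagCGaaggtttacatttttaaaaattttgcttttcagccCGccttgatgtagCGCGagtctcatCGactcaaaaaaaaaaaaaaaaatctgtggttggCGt
Ebf1 start 2: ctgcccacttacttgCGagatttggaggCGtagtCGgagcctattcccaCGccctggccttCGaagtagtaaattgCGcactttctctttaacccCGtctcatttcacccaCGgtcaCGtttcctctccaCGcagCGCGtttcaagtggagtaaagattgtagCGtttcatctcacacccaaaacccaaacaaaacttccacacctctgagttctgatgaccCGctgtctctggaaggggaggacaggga
Ebf3 start 1: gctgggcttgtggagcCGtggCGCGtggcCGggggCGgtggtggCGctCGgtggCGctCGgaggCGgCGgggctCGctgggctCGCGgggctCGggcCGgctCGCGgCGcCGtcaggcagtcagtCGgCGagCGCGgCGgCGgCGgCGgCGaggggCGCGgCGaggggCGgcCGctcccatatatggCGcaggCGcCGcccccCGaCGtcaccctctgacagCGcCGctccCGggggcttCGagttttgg

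The Ebf3 stretch held 43 CpGs, against 9 and 14 before the 2 Ebf1 starts and a median of 6 over 32851 promoters of this length. Its G and C content was 80%, against 40% and 52% for Ebf1 and a median of 52.4% over all. The palindromic EBF consensus (TCCC, any 2 bases, GGGA), which reads alike on both strands and was searched on both, was in none of the 3 stretches and in 0.779% of all promoters of this length. That says only that these letters are not in these windows.

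The Ebf1 and Ebf2 windows held more peaks in every library than the median window of their length, and the Ebf3 window did not. The Ebf1 window held 30 peaks in VAT 1, 24 in VAT 2, 23 in SAT 1 and 5 in SAT 2. Non-overlapping windows of the same length with at least 1 merged region had medians of 9, 10, 9 and 3 peaks in the same libraries. Their 90th percentiles were 28, 30, 27 and 12, and only the VAT 1 number lay above. In the Ebf2 window there were 26 peaks in VAT 1, 20 in VAT 2, 22 in SAT 1 and 6 in SAT 2, against medians of 7, 7, 7 and 2 in windows of its length. The 90th percentiles there were 20, 22, 20 and 9, and only the VAT 1 and SAT 1 numbers lay above. By the number of merged regions, Ebf2 with 36 stood above the 90th percentile of its like windows (28), and Ebf1 with 38 stood just below it (39). The Ebf3 window held 5 peaks in VAT 1, 6 in VAT 2, 5 in SAT 1 and 1 in SAT 2, and its 8 regions compare with a median of 9.

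**Figure D1:**
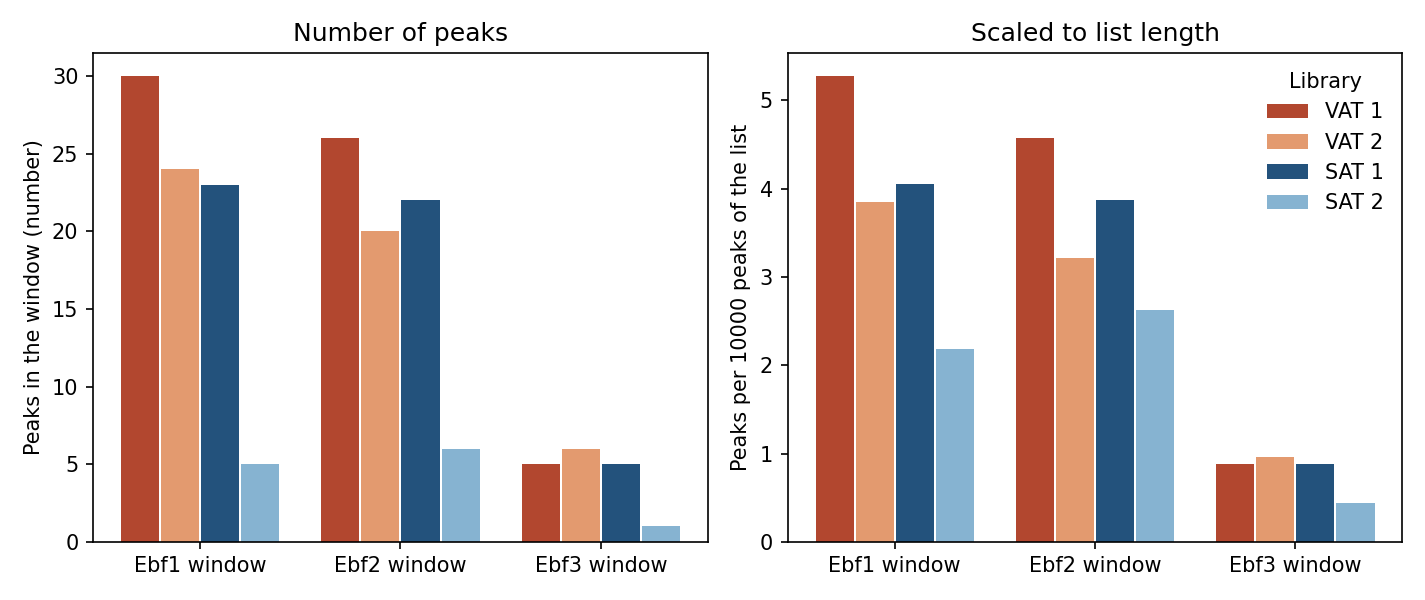
Peaks in each Ebf window by library, as the number of peaks (left) and per 10000 peaks of the library's own list (right); each bar is 1 library. VAT 1 is highest for Ebf1 and Ebf2, and SAT 2 is lowest in every window on both scales.

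Visceral and subcutaneous libraries overlapped in how much of their list fell on these genes. The lists differ in length, with 56907 peaks in VAT 1, 62279 in VAT 2, 56823 in SAT 1 and 22845 in SAT 2, so peaks were also counted per 10000 peaks of each list. For Ebf1 this gave 5.27 in VAT 1 and 3.85 in VAT 2, against 4.05 in SAT 1 and 2.19 in SAT 2. The means were 4.56 ± 1.0 in visceral and 3.12 ± 1.31 in subcutaneous progenitors (SD, n = 2 each), with p = 0.667 in a two-sided exact permutation test. SAT 1 thus lay between the visceral libraries. The difference of 1.44 was 0.52 without SAT 2 and 0.735 without VAT 1. It was 1.37 in the top 50% of each list and 0 with all lists held to their 22845 highest-scoring peaks.

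The Ebf2 window, home of the brown and beige preadipocyte factor, showed the same order of libraries. It took 4.57 per 10000 peaks in VAT 1 and 3.21 in VAT 2, against 3.87 in SAT 1 and 2.63 in SAT 2. The difference between the means was 0.641 (exact permutation p = 0.667, n = 2 each). It was 0.018 without SAT 2 and -0.038 without VAT 1.

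For Ebf3 the share of the list was small in every library. It was 0.879 per 10000 peaks in VAT 1 and 0.963 in VAT 2, against 0.880 in SAT 1 and 0.438 in SAT 2, and the difference of means was 0.262 (exact permutation p = 0.667, n = 2 each). VAT 1 and SAT 1 had nearly the same value, and the SAT 2 value is a single peak. Without SAT 2 the difference was 0.041, with windows widened by 50 kb it was -0.074, and with equal-length lists it was 0.657. With 2 libraries against 2 the smallest p this test allows is 0.333. Of 24 such comparisons (the number of peaks, peaks per 10000, covered length, median width, and median and highest percentile, for each window and for all 3), none went below it, and the lowest p after Benjamini-Hochberg adjustment was 0.727.

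Each window has 1 leading region by the definition given below, which itself favours high ranks. The leading region of each window stood in the upper part of every list. The common Ebf2 regions at 67807275, 67917912 and 67976347 also stood in the upper part of every list. Those at 67821829 and 67901925 did not, with SAT 2 percentiles of 26.9 and 45.7. The authors' peak caller score was read only as a percentile within its list, where 50 is the middle. Over all 3 windows the median percentile was 41.4 in VAT 1 and 43.2 in VAT 2, against 44.4 in SAT 1 and 50.7 in SAT 2. In the Ebf1 window the median percentile was 37.5 in VAT 1 and 40.2 in VAT 2, against 39.4 in SAT 1 and 14.6 in SAT 2. In the Ebf2 window it was 37.2 in VAT 1 and 56.9 in VAT 2, against 45.2 in SAT 1 and 60.5 in SAT 2. The few Ebf3 peaks had medians of 69.5 in VAT 1 and 53.8 in VAT 2, against 69.9 in SAT 1 and a single peak at 88.7 in SAT 2. These were the highest values of the 3 windows except in VAT 2, where the Ebf2 median was higher.

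The visceral median differed from the subcutaneous one by 11.8 points for Ebf1 (exact permutation p = 0.667, n = 2 each). The value was -0.59 without SAT 2 and -23.1 in the top 50% of each list, so its sign depended on the setting. In the top 50%, percentiles were ranked anew within the shortened lists. The SAT 2 value there was a single peak, that of the leading region. For Ebf2 the difference was -5.84 (p = 0.667, same exact test), and it was 4.04 without VAT 1 and 1.82 without SAT 2. For Ebf3, where neither visceral library reached the subcutaneous ones, it was -17.7 (p = 0.333, same exact test), and 1 of the 2 subcutaneous values is that single peak. Without SAT 2 the Ebf3 difference was -8.29, and there the SAT 1 value lay close to that of VAT 1. This difference was -3.16 in the top 50% of each list, -5.57 with windows widened by 50 kb and -14.1 with equal-length lists. Peaks at or above the percentile of 80, by definition about 1 in 5 of a whole list, made up 5 of 61 peaks over all windows in VAT 1 and 7 of 50 in VAT 2, against 6 of 50 in SAT 1 and 3 of 12 in SAT 2.

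**Figure D2:**
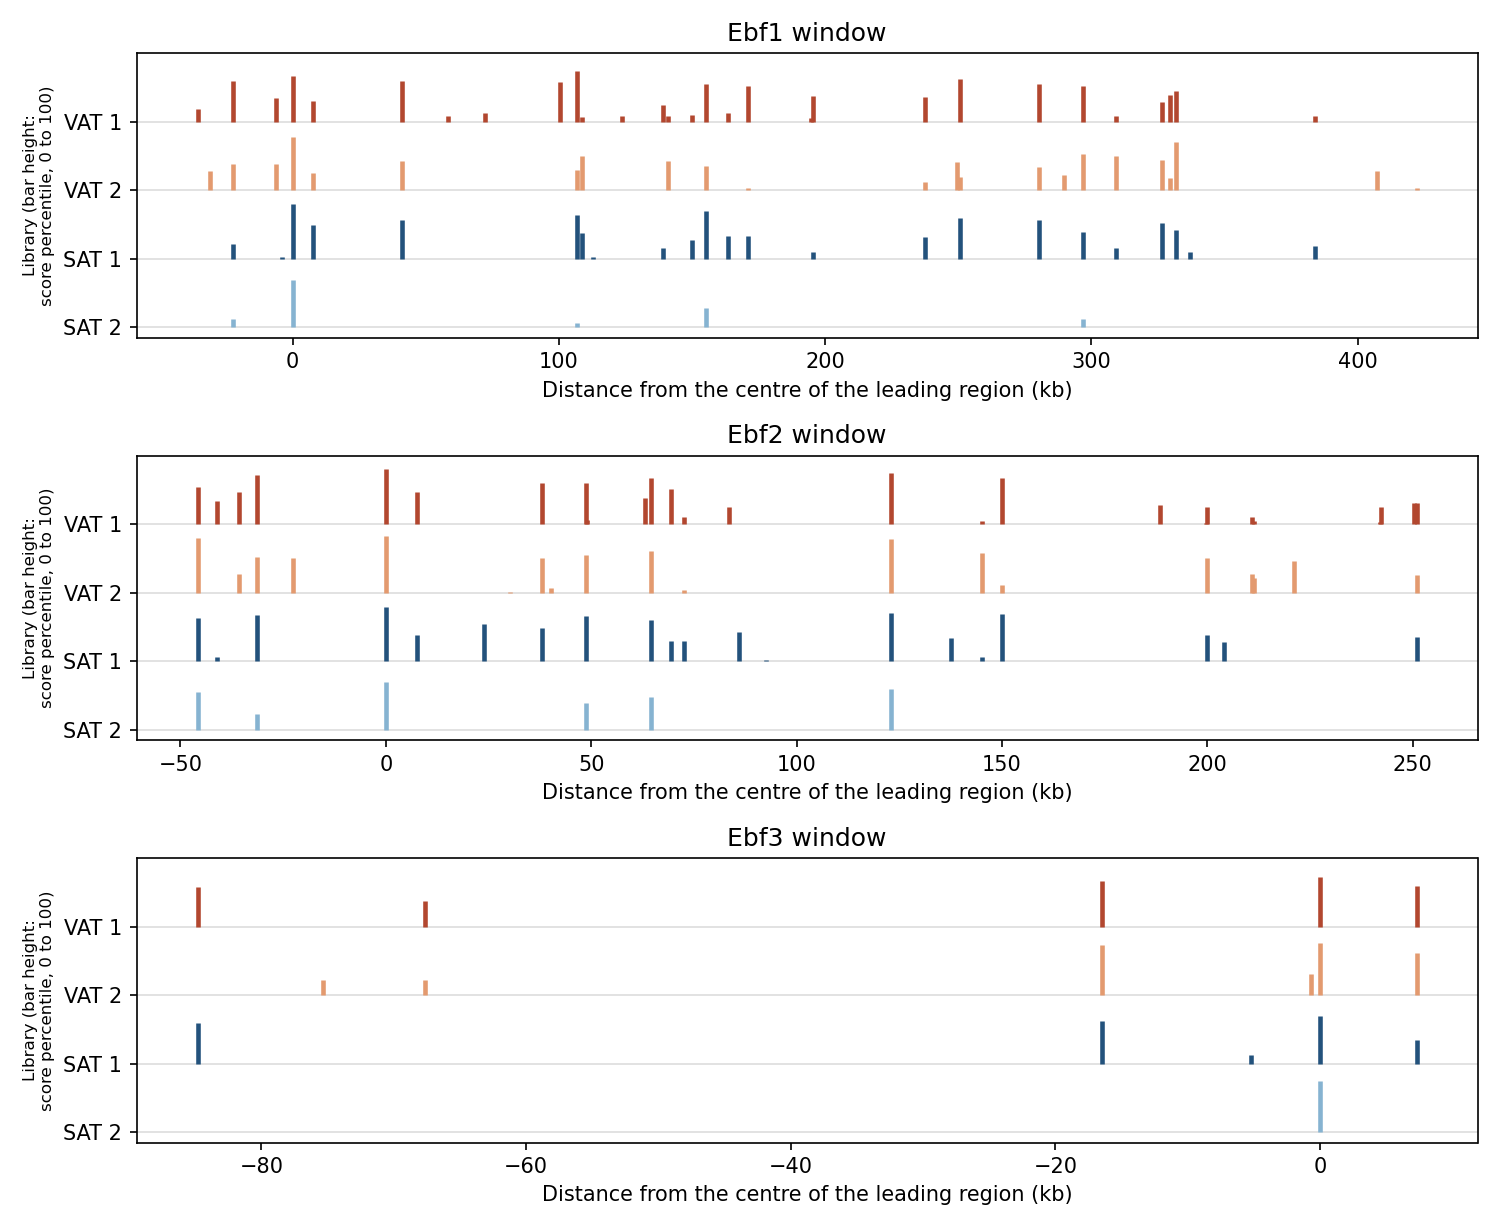
Regions with a peak in the Ebf1, Ebf2 and Ebf3 windows, by library from VAT 1 (top) to SAT 2 (bottom); the x axis is the distance in kb from the centre of the leading region, and the bar height is the score percentile on the same scale in all rows. The longest stretch between neighbouring regions is 46.8 kb in the Ebf1, 38.1 kb in the Ebf2 and 50.8 kb in the Ebf3 window, and the SAT 2 row holds 12 bars in all.

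The regions with a peak in all 4 libraries numbered 12, with 5 at Ebf1, 6 at Ebf2 and 1 at Ebf3. That is 14.6% of the 82 regions (Clopper-Pearson interval at 95% from 7.80% to 24.2%), against 23.2% genome-wide, and the interval covers counting error only. All 12 SAT 2 peaks lay in these regions, so SAT 2 had no region in these windows that the other libraries lacked. Over the genome, 19350 of the 21340 regions with a SAT 2 peak had a peak in all 4 libraries. The shortest list thus limited this number: without SAT 2, 30 regions had a peak in all remaining libraries. The leading region of a window is the one whose weakest library ranked highest.

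At Ebf1 the leading region lay on chromosome 11 at 44430472 to 44430919 (448 bp). Its percentile was 78.8 in VAT 1 and 91.4 in VAT 2, against 93.6 in SAT 1 and 80.7 in SAT 2. The depots overlapped there, with SAT 1 highest and VAT 1 lowest. In VAT 2, SAT 1 and SAT 2 it was the highest-scoring peak of the window.

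By percentile in the list, the other common Ebf1 regions ranked lowest in SAT 2. Common regions of the whole genome also had their lowest median there (55.6). One at 44537324 to 44538000, the widest of the window with 677 bp, held the highest VAT 1 peak (percentile 87.4) but ranked at 34.9 in VAT 2, at 75.0 in SAT 1 and at 7.01 in SAT 2. In VAT 2 it was split into 2 peaks. Both replicate 1 libraries thus ranked it well above both replicate 2 libraries. Another, at 44585789 to 44586143, stood at 64.1 in VAT 1 and 41.1 in VAT 2, against 82.3 in SAT 1 and 32.4 in SAT 2. With percentiles taken among the common regions alone, SAT 2 was lowest in neither. The region at 44537324 then stood at 65.7 in VAT 1 and 2.87 in VAT 2, against 39.2 in SAT 1 and 4.77 in SAT 2. That at 44585789 stood at 24.7 in VAT 1 and 4.25 in VAT 2, against 54.0 in SAT 1 and 26.0 in SAT 2. There both subcutaneous values lay above both visceral ones.

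In the remaining pair of common Ebf1 regions both visceral libraries ranked above both subcutaneous ones, an order that 32.7% of all common regions in the genome had. The region at 44408337 to 44408612 stood at 70.3 in VAT 1 and 45.3 in VAT 2, against 25.7 in SAT 1 and 14.6 in SAT 2. The region at 44727405 to 44727649 stood at 61.8 in VAT 1 and 62.6 in VAT 2, against 45.2 in SAT 1 and 14.6 in SAT 2. They lie on opposite sides of the leading region, at -22.2 kb and 296.8 kb from its centre. With percentiles taken among the common regions alone, a step added after seeing the data, the first overlapped between depots (32.6 in VAT 1 and 5.65 in VAT 2, against 3.33 in SAT 1 and 10.6 in SAT 2), and the second did not (22.0 and 15.3 in the visceral libraries, against 9.56 and 10.6 in the subcutaneous ones).

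At Ebf2 the leading region was the highest-scoring peak of the window in every library. It lay on chromosome 14 at 67853260 to 67853687 (428 bp), with percentiles of 94.9 in VAT 1 and 97.3 in VAT 2, against 93.1 in SAT 1 and 81.3 in SAT 2. Its rank was 2915 in the VAT 1 list and 1700 in the VAT 2 list, against 3871 in the SAT 1 list and 4211 in the much shorter SAT 2 list. Both visceral libraries ranked it above both subcutaneous ones by percentile, though the distance between VAT 1 and SAT 1 was under 2 points.

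Further Ebf2 regions were open throughout. The region at 67976347 to 67976757, which lies 123 kb from the leading one, had percentiles of 87.8 in VAT 1 and 91.9 in VAT 2, against 81.9 in SAT 1 and 70.8 in SAT 2. The region at 67917912 to 67918134 had 78.2 in VAT 1 and 72.2 in VAT 2, against 71.3 in SAT 1 and 55.6 in SAT 2. In both, the visceral values lay above the subcutaneous ones without overlap, as in 32.7% of common regions genome-wide. Taken among the common regions alone, the region at 67976347 kept this order (66.6 in VAT 1 and 74.1 in VAT 2, against 53.0 in SAT 1 and 66.0 in SAT 2). The region at 67917912 did not (45.7 in VAT 1 and 26.6 in VAT 2, against 33.3 in SAT 1 and 49.2 in SAT 2). The widest region of the window, with 756 bp at 67807275 to 67808030, stood at 63.5 in VAT 1 and 93.1 in VAT 2, against 73.7 in SAT 1 and 65.4 in SAT 2, so the 2 visceral libraries enclosed both subcutaneous ones.

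The last 2 common Ebf2 regions also overlapped between depots by percentile in the list. At 67901925 to 67902328 the percentile was 69.7 in VAT 1 and 65.1 in VAT 2, against 77.9 in SAT 1 and 45.7 in SAT 2. At 67821829 to 67822313 it was 84.5 in VAT 1 and 60.9 in VAT 2, against 79.1 in SAT 1 and 26.9 in SAT 2. By these values both were higher in both replicate 1 than in both replicate 2 libraries. Taken among the common regions alone, the region at 67821829 kept this order (58.8 in VAT 1 and 13.7 in VAT 2, against 47.2 in SAT 1 and 20.9 in SAT 2). The region at 67901925 did not (31.8 in VAT 1 and 17.8 in VAT 2, against 44.8 in SAT 1 and 39.1 in SAT 2). There both subcutaneous values lay above both visceral ones.

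Ebf3 had 1 common region, on chromosome 7 at 144505732 to 144506427, and with 696 bp it was the widest of its window. Its percentile was 85.2 in VAT 1 and 89.5 in VAT 2, against 81.8 in SAT 1 and 88.7 in SAT 2. SAT 2 lay between the visceral libraries, and this was the highest-ranking SAT 2 peak in the 3 windows. It was also the highest-scoring peak of the Ebf3 window in each library.

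**Figure D3:**
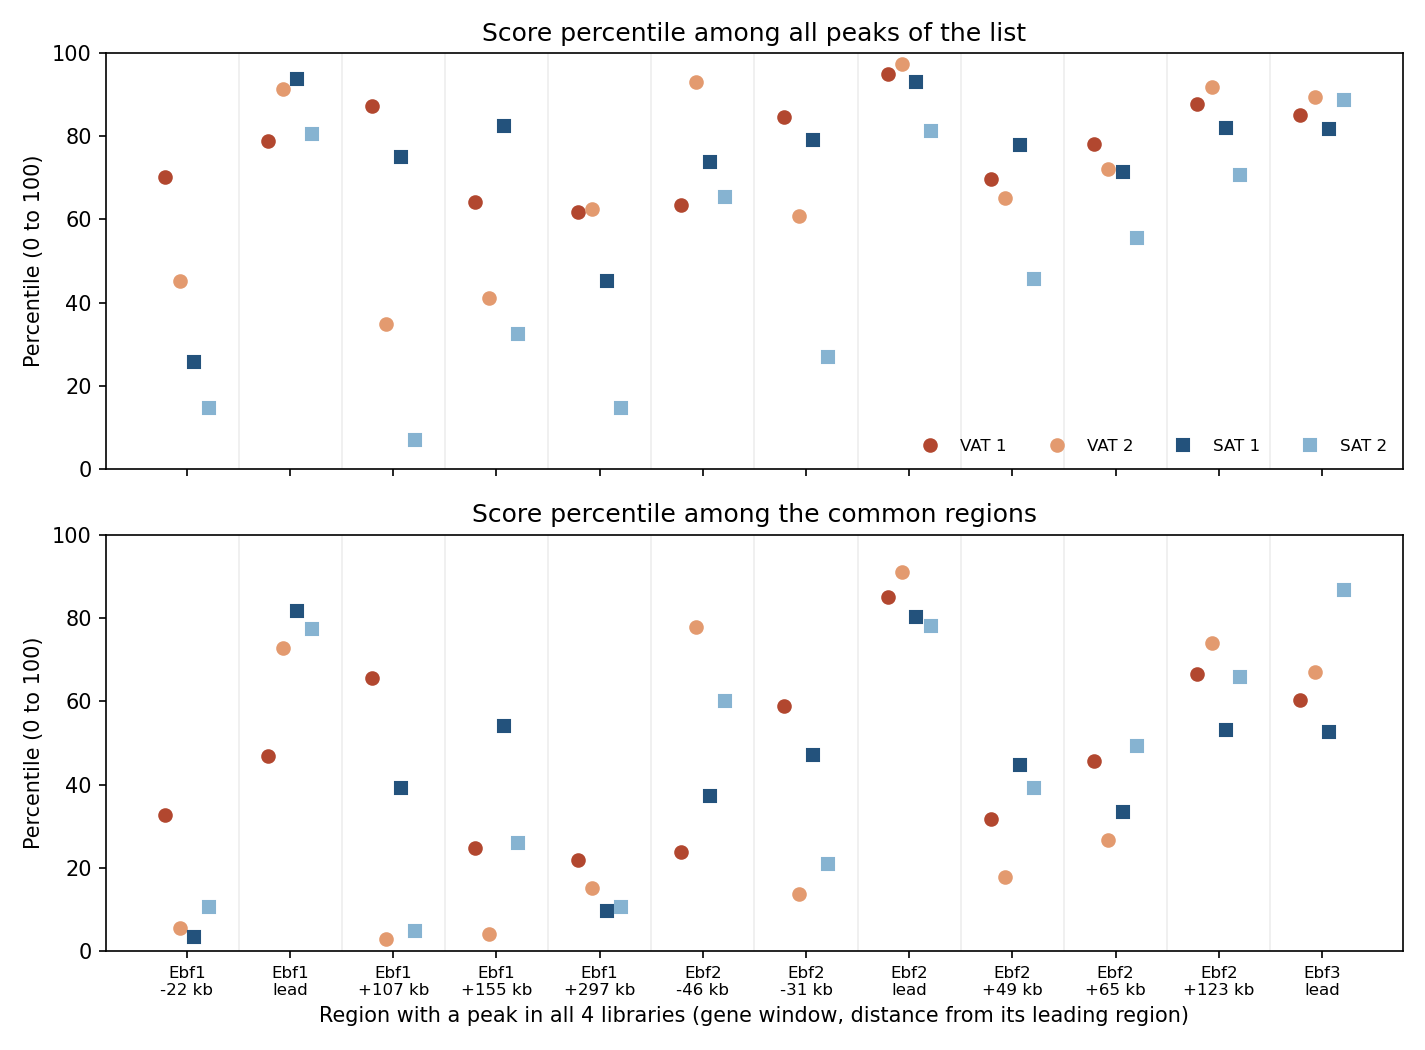
Score percentile of the 12 regions with a peak in all 4 libraries, among all peaks of the list (top) and re-ranked among the 19350 regions common to all libraries (bottom); circles are visceral and squares subcutaneous libraries, and regions are named by their distance from the leading region of the gene window. In the top panel both circles lie above both squares in 5 regions, and in the bottom panel both circles lie above both squares in 3 and below in 3.

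Counted over the common regions, both visceral percentiles lay above both subcutaneous ones in 5 of 12, against 32.7% of all 19350 common regions. The reverse order was seen in 0 of 12, against 2.99%. Common regions as a whole had a median percentile of 80.3 in VAT 1 and 83.5 in VAT 2, against 80.4 in SAT 1 and 55.6 in SAT 2, with SAT 2 lowest. When percentiles were taken among the common regions alone, both visceral values were above in 3 of 12 (15% of all common regions) and both subcutaneous values in 3 of 12 (15.6%). The Ebf2 leading region kept its order, with 85.1 in VAT 1 and 91.2 in VAT 2, against 80.4 in SAT 1 and 78.1 in SAT 2. The Ebf1 leading region then had the opposite order, with 46.8 in VAT 1 and 72.7 in VAT 2, against 81.7 in SAT 1 and 77.4 in SAT 2. By replicate number, both replicate 1 percentiles were on top in 4 of 12 (22.7% of all common regions) and both replicate 2 percentiles in 1 of 12 (6.17%). Re-ranked, these counts were 2 of 12 (19.1%) and 2 of 12 (20.5%). None of these counts was read as setting the Ebf genes apart from the genome.

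Another 18 regions were open in both visceral libraries and SAT 1 but lacked a SAT 2 peak, which is 22.0% of the 82 and compares with 19.5% of all regions. There were 10 at Ebf1, 6 at Ebf2 and 2 at Ebf3, with a median width of 310.5 bp and percentiles between 4.37 and 85.3. The highest percentile among them belonged to an Ebf3 region at 144489415 to 144489807, with 78.1 in VAT 1 and 85.3 in VAT 2, against 73.5 in SAT 1. An Ebf2 region at 68003315 to 68003778 was high in both replicate 1 libraries, with 79.2 in VAT 1 and 81.8 in SAT 1, and low in VAT 2 with 13.3. These 2 regions were chosen after their values were seen.

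Regions with peaks in both visceral and in no subcutaneous library numbered 7, or 8.54% with an exact 95% interval of 3.50% to 16.8%, where the genome has 4.6%. No region had peaks in both subcutaneous and in no visceral library, against 0.11% genome-wide. The visceral ones were narrow, from 144 to 296 bp, and their percentiles ran from 6.10 to 55.8. With the lists held to equal length, 1 region was of the visceral kind and 0 of the subcutaneous kind. Leaving out VAT 1, VAT 2 or SAT 1 raised the visceral count to 19, 23 and 25, because fewer libraries then had to meet the rule. Without SAT 2 the subcutaneous count was 10, which are the regions with a peak only in SAT 1.

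By gene, 3 of the visceral regions belonged to Ebf1. The one at 44424502 to 44424797 had percentiles of 39.6 in VAT 1 and 45.3 in VAT 2 and lay at -6.05 kb from the leading region. The one at 44571683 to 44571826 had 8.99 in VAT 1 and 50.5 in VAT 2. The one at 44760216 to 44760421 had 46.1 in VAT 1 and 20.1 in VAT 2. No library ranked them high, and the last 2 differed widely between the visceral libraries.

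Ebf2 also had 3 such regions. That at 67817587 to 67817745 had percentiles of 55.8 in VAT 1 and 32.7 in VAT 2. A close pair at 68064364 to 68064509 and 68064770 to 68065018 was weaker, with 11.8 and 6.10 in VAT 1 and 32.7 and 25.3 in VAT 2. Merged within 500 bp, that pair counts as 1 region, and the total is then 6. Ebf3 had 1, at 144438340 to 144438578, with 44.2 in VAT 1 and 25.3 in VAT 2.

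Regions only in both replicate 1 libraries were 9, against 7 only in both visceral libraries. Over all merged regions of the genome these counts were 7809 against 3835. In the Ebf windows the counts were 5 against 1 with equal-length lists, 6 against 3 in the top 50% of each list, 13 against 8 with windows widened by 50 kb and 9 against 5 at 50% reciprocal overlap. Genome-wide counts under these settings are not given here, so these values do not set the Ebf windows apart from the genome. Peaks in VAT 1 and SAT 1 and in neither replicate 2 library were found in 9 regions, or 11% against 9.37% of all merged regions. The reverse, peaks in VAT 2 and SAT 2 and in neither replicate 1 library, was found in 0 regions, against 0.652%. The 9 comprised 5 at Ebf1, 3 at Ebf2 and 1 at Ebf3. The Ebf3 region, at 144421102 to 144421420, had the highest percentiles of them, with 68.5 in VAT 1 and 69.9 in SAT 1. Next came the Ebf2 regions at 67860968 to 67861154, with 54.6 in VAT 1 and 45.2 in SAT 1, and at 67922810 to 67922990, with 59.5 in VAT 1 and 35.0 in SAT 1. At Ebf1 the leading pair was weak, with 29.0 in VAT 1 and 17.9 in SAT 1 at 44569863 to 44570053 and 15.2 in VAT 1 and 39.4 in SAT 1 at 44594117 to 44594394. Without VAT 1, VAT 2 or SAT 1 the count of 9 was 20, 26 and 24, again because fewer libraries had to meet the rule. The crossed pairings (VAT 2 with SAT 1, and VAT 1 with SAT 2) had 0 regions each, against 4.93% and 0.096% of all regions.

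**Figure D4:**
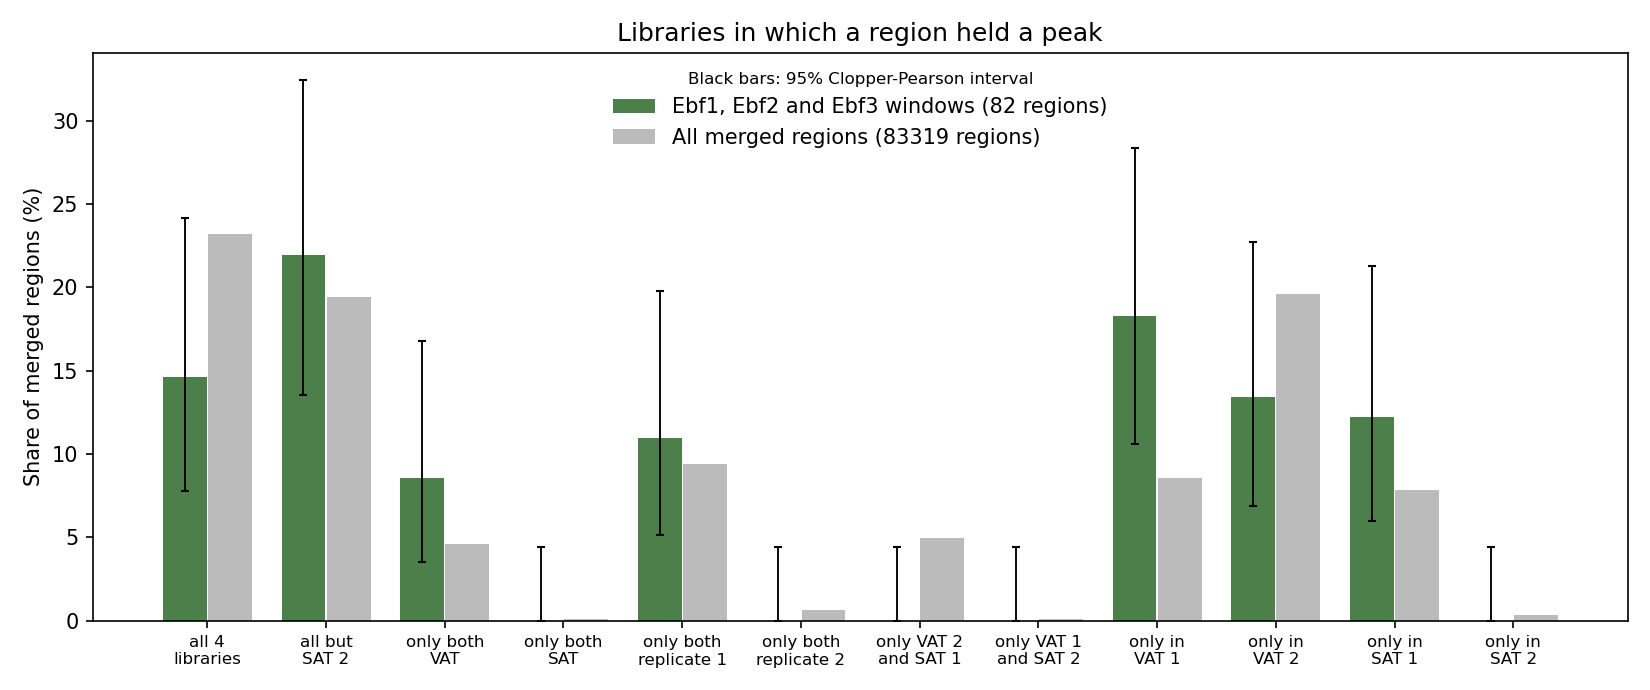
Share of merged regions by the libraries in which they held a peak, for the 82 regions of the Ebf1, Ebf2 and Ebf3 windows (green, with 95% Clopper-Pearson intervals) and for all 83319 regions (grey). The largest distances between the bars are in regions with a peak only in VAT 1 (18.3% against 8.58%) and in regions with a peak in all 4 libraries (14.6% against 23.2%).

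The remaining 36 regions had a peak in 1 library, or 43.9% against 36.4% of all merged regions. VAT 1 alone held 15 of them (18.3%, against 8.58% of all regions), VAT 2 alone 11 (13.4%, against 19.6%), SAT 1 alone 10 (12.2%, against 7.84%) and SAT 2 alone 0 (against 0.36%). They were the narrowest members, with a median of 126.5 bp, and their median percentile was 23.6. The highest, chosen after its value was seen, was a VAT 1 peak in the Ebf1 window at 44531235 to 44531389 with a percentile of 67.6.

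Regions shared by more libraries had higher percentiles. They were also wider, which follows in part from the merging, since a region spans the peaks of all its libraries. Median widths were 126.5 bp, 198.5 bp, 310.5 bp and 419.5 bp for regions in 1, 2, 3 and 4 libraries, and median percentiles were 23.6, 32.9, 49.7 and 73.0. Over the whole genome the corresponding values were 130.0 bp, 212 bp, 302 bp and 524 bp, and 21.0, 32.8, 48.1 and 77.8. The Ebf medians lay near those of the genome in regions of 1 to 3 libraries and below them in common regions, a difference that was not tested.

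Between libraries, the Ebf windows were most alike in VAT 1 and SAT 1. These shared 39 of the 71 regions found in either (54.9%), against 37 of 72 (51.4%) for VAT 1 and VAT 2 and 30 of 67 (44.8%) for VAT 2 and SAT 1. In the whole genome the same shares were 65.9%, 52.1% and 52.8%. The order differed by gene. At Ebf1 the shares were 60.6% for VAT 1 and SAT 1 and 51.4% for VAT 1 and VAT 2, whereas at Ebf2 they were 46.9% and 50%. All these pairs use the same libraries, and the differences at Ebf2 amount to a few regions.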

How the data were processed

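ATAC-seq peak lists of 4 libraries were used, with depot and replicate number taken from the sample titles. Per the submitters' processing notes, the tools were Bowtie2 and MACS2 and the build was mm9. Not given in the sources used here are their versions and options, any shift of read ends, and filters of duplicates or repeats. The authors deposited 1 list per library, so peaks were not called on pooled replicates. The deposited score is a whole number of 20 or more with no stated scale. It was converted to a percentile (100 times the average rank over the number of peaks in the list). The lists give no read counts, so depth is unknown; absence of a peak is no proof of closed chromatin.

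Peaks overlapping by at least 1 bp were merged across libraries over the whole genome, and a region took a library's highest percentile. Library values were compared by two-sided exact permutation tests. Regions are not replicates and were not tested. The interval code was tested on simulated data and gave the same merged regions as bedtools 2.31.1. Python 3.11.15, numpy 2.4.6, pandas 2.3.3, scipy 1.17.1 and matplotlib 3.10.9 were used. Promoter sequences come from RefSeq (GRCm38.p6).

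The genes, windows, lists and tests were chosen with earlier results of these data known. Named regions were, per window, the 5 common regions with the highest percentile in their weakest library, the widest, all depot-restricted ones, the leading 2 shared by the replicate 1 or the replicate 2 libraries, and each library's highest peak; others are marked. A sixth common Ebf2 region was added. Checks of marker genes and of other genes of the pathway, planned for an mm9 annotation, were not analysed here.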

Additional observations from a re-analysis of the deposited data

How the results depend on the processing

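Alternatives were equal-length lists, the top 50% of each list, windows widened by 50 kb or narrowed by 25 kb, each library left out, merging within 500 bp, 50% reciprocal overlap, 200 bp around each peak centre, and a block for replicate number. Counts of regions fell with shorter lists, by construction. With equal-length lists the 82 regions became 26, with 7 in all 4 libraries, 1 in all but SAT 2, 1 only in both visceral, 5 only in both replicate 1 libraries and 2 only in VAT 1 and SAT 2. With the top 50% there were 37 regions, with 6 in all 4 libraries, 5 in all but SAT 2, 3 only in both visceral libraries and 1 only in VAT 2 and SAT 1. That last count was also 1 with windows widened by 50 kb, 50% reciprocal overlap or 200 bp around each centre. No setting with all 4 libraries gave a region only in both subcutaneous or only in both replicate 2 libraries. Genome-wide class counts with the shortened lists are not given here, so it is not known whether the Ebf counts differ from the genome there.

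With 1 library left out, a class rests on the remaining libraries, so its counts are not a range of the same quantity. They ran from 12 to 30 regions in all libraries, 7 to 25 only in visceral and 0 to 10 only in subcutaneous. For replicate 1 only they were 9 to 26, and for replicate 2 only 0 to 11. For VAT 2 with SAT 1 they were 0 to 17, and for VAT 1 with SAT 2 they were 0 to 15. The 10, 11 and 15 arose without SAT 2 and are the regions only in SAT 1, only in VAT 2 and only in VAT 1. Common regions with both visceral percentiles on top numbered 1 of 7 with equal-length lists and 3 of 6 in the top 50%. They numbered 8 of 17 with widened windows, where the genome-wide share stays at 32.7%, and 3 of 12 when re-ranked among common regions. Those with both subcutaneous percentiles on top numbered 2 of 7 with equal-length lists and 3 of 12 when re-ranked. Genome-wide shares with the shortened lists are not given here, so these counts do not set the Ebf windows apart from the genome.

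Of the depot differences in peaks per 10000, that of Ebf3 was -0.074 with widened windows. With 1 library left out, it lay between 0.52 and 2.37 for Ebf1, between -0.038 and 1.32 for Ebf2 and between 0.041 and 0.483 for Ebf3. For equal-length lists it was 0 for Ebf1 and Ebf2 and 0.657 for Ebf3. With 1 library left out, the difference in median percentile lay between -0.59 and 24.2 for Ebf1. In the same way it lay between -15.7 and 4.04 for Ebf2 and between -27.1 and -8.29 for Ebf3. In the top 50% it was -23.1 for Ebf1, where the SAT 2 value was a single peak, and the cause was not tested. The replicate block leaves these differences as they are (1.44 peaks per 10000 for Ebf1, 0.641 for Ebf2 and 0.262 for Ebf3), and the smallest p that 2 pairs allow by sign flips is 0.5. The labels do not tie equal numbers to a shared animal or day. Across 19350 common regions, which are not replicates, the deviations of same-numbered libraries from their depot mean correlated at 0.22.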
